A study of Mus musculus with 26 samples.

Results

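The region described here is the imprinted domain of chromosome 7 that holds Kcnq1, its antisense RNA Kcnq1ot1 and the cell cycle inhibitor gene Cdkn1c. Its members were all peaks of 16 deposited lists that touched mm9 chr7:150280000-150680000, a window of 400 kb fixed by position and not by any measured value. It held 216 of 762764 peaks: 42 of 137510 SMC3 peaks, 148 of 510066 ATAC peaks and 26 of 115188 ChIRP summits. The lists came from C2C12, an immortalised mouse myoblast line, untreated or transfected with siRNA, with 2 libraries in each of 8 groups.

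SMC3, which forms part of the ring of cohesin, was mapped by ChIP-seq in myoblasts, in myotubes with no transfection given in the labels, and in myotubes transfected with siDRR. Accessible chromatin was mapped by ATAC-seq, which records where a transposase inserts, in myotubes transfected with control siRNA, siDRR or siSmc3. The DRR enhancer RNA was mapped in myotubes by ChIRP-seq, in which probes pull down an RNA with its chromatin, using 2 separate probe pools. siDRR targets that RNA, which is made from the distal regulatory region, an enhancer of Myod1, and siSmc3 targets the mRNA of Smc3. Myotubes were formed in low horse serum with insulin, transferrin and selenium. No list measures RNA, so neither the knockdowns nor markers of muscle identity were checked. The 10 input and LacZ probe libraries were not analysed here.

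Cdkn1c encodes p57, an inhibitor of cyclin-dependent kinases that is expressed from the maternal chromosome and helps cells leave the cell cycle. Kcnq1 encodes a voltage-gated potassium channel subunit. Kcnq1ot1 is a long noncoding RNA transcribed from the paternal chromosome, against the direction of Kcnq1, and it silences neighbouring genes including Cdkn1c in cis. Its start lies in the control region of the domain, which carries DNA methylation on the maternal chromosome. Cohesin holds chromatin loops together, and work on mouse muscle cells has described contact between this control region and Cdkn1c that involves the insulator protein CTCF and cohesin. The peak lists carry no allele information, so the parental chromosomes were measured together.

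The promoter of Kcnq1ot1 is shown because the start of this RNA lies in the control region. The RefSeq sequence (GRCm38.p6, minus strand) runs from 250 bases before the start to 50 after it, and capitals mark the CCAAT box, the element read by the factor NF-Y.

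Kcnq1ot1 promoter: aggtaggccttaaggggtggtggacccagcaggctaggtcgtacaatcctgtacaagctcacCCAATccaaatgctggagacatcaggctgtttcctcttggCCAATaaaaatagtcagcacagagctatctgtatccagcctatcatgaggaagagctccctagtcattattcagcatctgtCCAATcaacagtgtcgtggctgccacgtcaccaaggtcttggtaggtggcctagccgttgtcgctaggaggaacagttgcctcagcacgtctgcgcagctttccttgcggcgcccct

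CCAAT was searched on both strands, as CCAAT and as ATTGG. It occurred 3 times in this window, all on the sense strand, beginning 188, 148 and 67 bases before the start. Of 32851 promoter sequences of 300 bases, 37.4% held at least 1 match and 3.37% held as many or more. Kcnq1 and Cdkn1c had no entry in the promoter table. A match describes letters, not a bound factor. The RefSeq table is on another build than the peaks, so it gave the order of genes and no positions: Trpm5, Kcnq1 with Kcnq1ot1 inside it, Cdkn1c, then Slc22a18. Positions of the peaks are therefore given in mm9 and as distances from the Cdkn1c interval of 150644200 to 150647000. Lower coordinates lie on the Kcnq1 side and higher coordinates on the Slc22a18 side.

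SMC3 formed 2 groups of sites at the ends of the window with a long empty stretch between them. Peaks of the 6 SMC3 libraries merged into 9 sites, numbered S1 to S9 from low to high coordinate. S1 to S4 lay between 150280265 and 150341302, and S6 to S9 between 150649227 and 150667080, from 2.23 to 19.1 kb beyond Cdkn1c. Between S4 and S6 were 308 kb in which a single SMC3 peak was called, S5, in 1 myotube library near the bottom of its list. It was the 1 site of 9 called in a single library, against 29.5% over the genome. Over the genome, 3.82% of gaps between neighbouring sites of 2 or more lists were at least this long, and the median gap was 28.5 kb. That share counts gaps and not sequence, and the gap set beside it was the longest of the window. In each of the 6 SMC3 lists the lower quartile of 6592 genome windows of 400 kb was 0 peaks. Windows without an SMC3 peak in a given list were thus common. The stretch between S4 and S6, 308 of the 400 kb of the window, held 55 of its 74 merged ATAC regions and 13 of its 18 ChIRP regions. These shares were close to the share of length. The map of the 16 lists shows this arrangement.

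**Figure D1:**
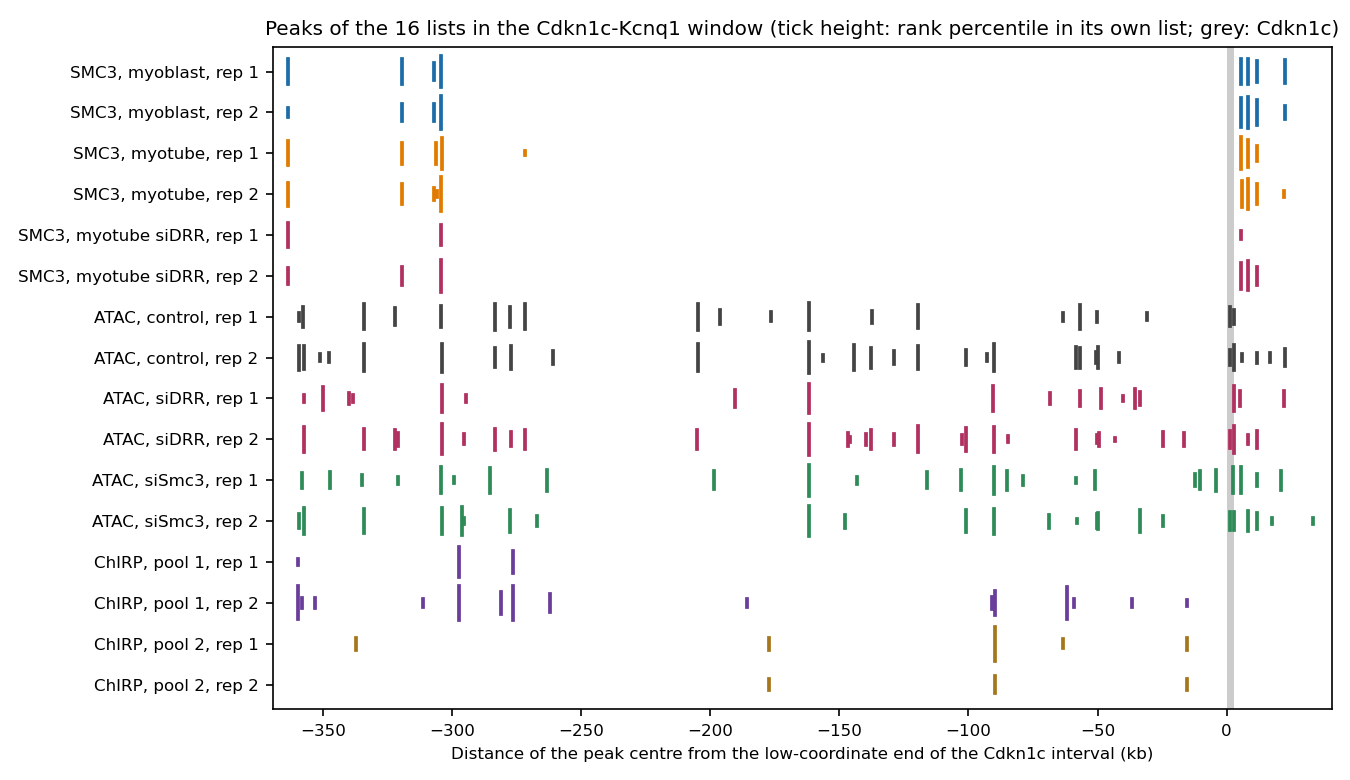
Peaks of the 16 lists by distance (kb) from the low-coordinate end of the Cdkn1c interval (grey), with tick height giving each peak's rank percentile in its own list. SMC3 ticks stand at both ends with a stretch of 308 kb between S4 and S6, while ATAC and ChIRP ticks run through that stretch.

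The number of peaks in the window was compared between groups after division by list length, since longer lists hold more peaks everywhere. Read counts were not used here, so depth is unknown. SMC3 lists of myoblasts held 8 and 8 window peaks, those of myotubes 8 and 9, and those of siDRR myotubes 3 and 6. Per 10000 peaks of the list, this was 2.50 ± 0.12 in myoblasts, 4.34 ± 1.38 in myotubes and 3.08 ± 0.70 with siDRR (SD, n = 2 each). In all 6 lists the number reached or passed the upper quartile of 6592 windows of equal length over the genome, which ran from 2 to 8 peaks.

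ATAC lists held 20 and 30 window peaks after control siRNA. The siDRR lists held 18 and 31, and the siSmc3 lists 25 and 24. The scaled values were 3.23 ± 0.30, 2.86 ± 0.40 and 2.71 ± 0.54 (SD, n = 2 each), and the groups overlapped. ChIRP lists held 3 and 15 summits for pool 1 and 5 and 3 for pool 2. Scaled, these were 5.08 ± 4.08 for pool 1 and 1.83 ± 0.49 for pool 2 (SD, n = 2 each), and the first library of pool 1, the shortest ChIRP list, gave the high value of 7.97. In 5 comparisons the two-sided exact permutation p was 0.333 for SMC3 in myoblasts against myotubes and for the ChIRP pools, and 0.667 for the other 3. Adjusted over the 5 (Benjamini-Hochberg), all were 0.667. The smallest p that 2 libraries in each group allow in this exact test is 0.333, so no difference could pass 0.05.

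**Figure D2:**
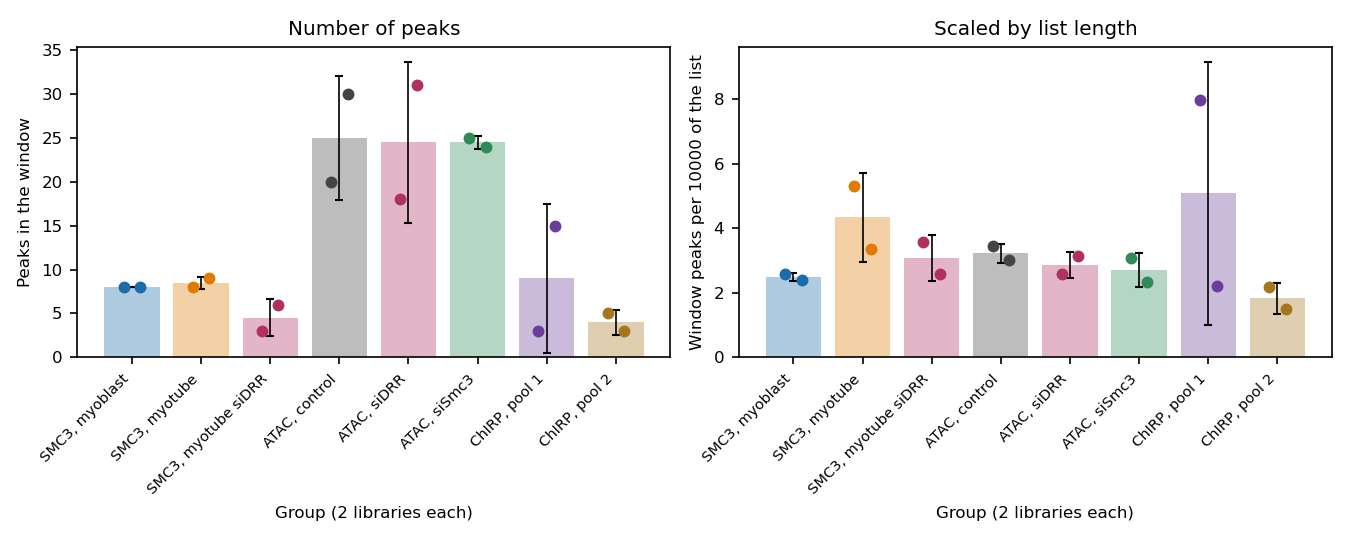
Window peaks by group, as numbers (left) and per 10000 peaks of the list (right). Bars are means of 2 libraries, error bars SD and points libraries. After scaling, the myotube SMC3 values stand above both myoblast values, and the siDRR values overlap the myotube range.

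Most SMC3 sites of the window were called in myoblasts and again in myotubes. Of 8 sites called in both myoblast libraries, 0 were lost in myotubes, where lost means called in neither library of the second group, against 21.7% of such regions over the genome. Of 7 sites called in both myotube libraries, 0 were gained, against 2.43% over the genome. All 4 libraries called 7 of the 9 sites, against 30.6% of all SMC3 regions. Across the genome, regions in the same of 10 equal classes of mean rank percentile as these 8 were lost in 13.3% of cases, which would give 1.06 losses here. With 8 sites, 0 losses cannot be told apart from that number. Leaving out the second myotube library gave 1 loss of 8, S9 (12.5%, against 46.7% over the genome), and 1 gain of 8, S5 (12.5%, against 5.66%). Leaving out the first gave 1 gain of 9 (11.1%, against 13.7%), a weak peak at 150338018 to 150338690 that falls within S3.

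S4 was the strongest cohesin site of the domain. It lay at 150339274 to 150341302, 303 kb from Cdkn1c on the Kcnq1 side. Its rank percentile, the place of a peak by score within its list with 100 the best, was 92.1 and 97.8 in the myoblast libraries. It was 89.4 and 99.1 in the myotube libraries and 52.0 and 90.8 in the siDRR libraries. In the second myotube list it stood 230th of 26765 peaks. Among the sites of the window S4 ranked highest in 4 of 6 libraries. The exceptions were the first myotube library, led by S6, and the first siDRR library, led by S1.

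S6, S7 and S8 were the cohesin sites nearest Cdkn1c. S6, at 150649227 to 150650589 and 2.23 kb from the gene, stood at percentiles of 67.3 and 84.5 in myoblasts, 93.3 and 73.6 in myotubes, and 16.3 and 71.1 with siDRR. It was called in every SMC3 library, and its myoblast and myotube values overlapped. S7, at 150651764 to 150653070, stood at 67.5 and 90.2 in myoblasts, 75.3 and 87.9 in myotubes, and 83.4 in the second siDRR library. S8, at 150655446 to 150656652, stood at 57.6 and 68.6 in myoblasts, 36.5 and 55.0 in myotubes, and 47.8 in the second siDRR library. The first siDRR library called neither S7 nor S8. In myoblasts and myotubes alike, all 3 sites were called in both libraries.

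The remaining sites, S1, S2, S3, S5 and S9, stood at lower percentiles than S4 in every library that called both, apart from S1 in the first siDRR library. S1, at 150280265 to 150281450 on the edge of the window, was called in all 6 libraries at percentiles of 68.5 and 18.6 in myoblasts, 67.9 and 63.0 in myotubes, and 65.4 and 40.2 with siDRR. S2, at 150324323 to 150325519, stood at 71.2 and 44.96 in myoblasts, 58.7 and 51.6 in myotubes, and 46.5 in the second siDRR library. S9, at 150666140 to 150667080, was seen at 61.8 and 33.5 in myoblasts and at 6.72 in the second myotube library, and in no other list. S5, at 150372082 to 150372976, was seen at 1.63 in the first myotube library. Percentiles of lists of different length show where a peak stands within its list and not a change in binding.

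**Figure D3:**
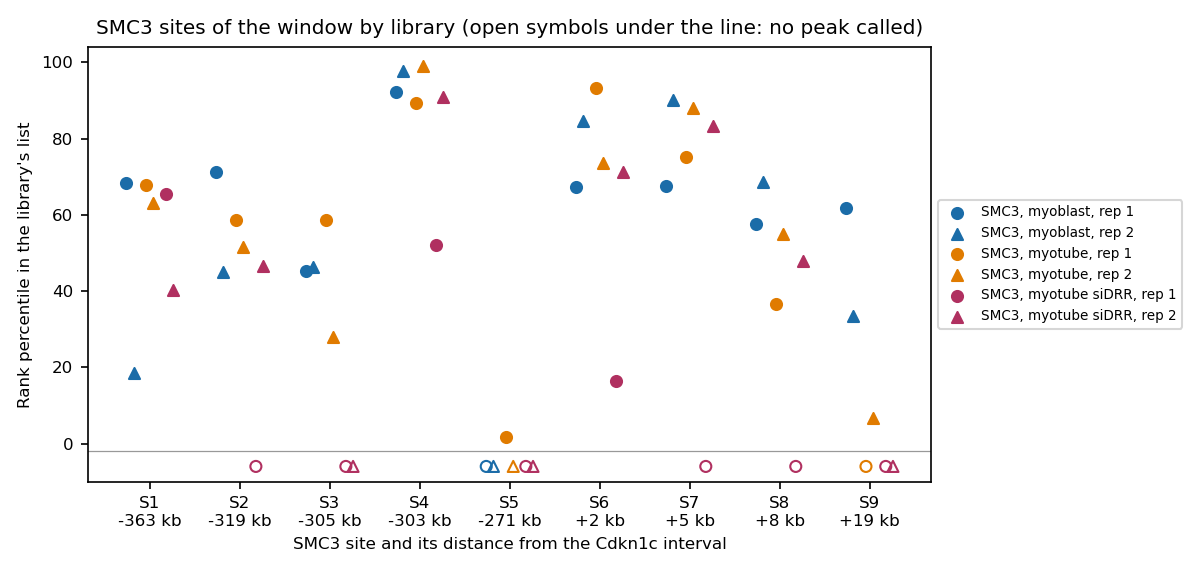
Rank percentile of the 9 SMC3 sites in each of 6 libraries, with the distance from Cdkn1c in kb; open symbols under the line mark libraries with no peak. S4 stands highest in 4 of 6 libraries. The first siDRR library has a peak at 3 of the 9 sites, against 8322 of 43783 SMC3 regions over the genome.

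SMC3 ChIP-seq after siDRR asked whether myotube cohesin sites depend on the enhancer RNA. The comparison libraries carry no transfection label, so siRNA delivery and the knockdown cannot be told apart. Of 7 sites called in both myotube libraries, S1, S4 and S6 were called in both siDRR libraries as well. Those 3 were all of the sites that every library called, 3 of 9 against 23.2% over the genome. Of the 7, 1 site was lost, S3 (14.3%, against 6.45% over the genome). Of 3 sites called in both siDRR libraries 0 were gained, against 0.502%. Genome regions in the same classes of percentile as the 7 were lost in 2.32% of cases, which would give 0.16 losses. A single site does not tell these shares apart.

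S3 lay at 150336701 to 150338918, next to S4 with a gap of 355 bp. Its percentile was 45.3 and 46.4 in the myoblast libraries and 58.7 and 28.1 in the myotube libraries, and neither siDRR library had a peak there. In the second myotube library it was split into peaks at 150336978 to 150337537 and 150338018 to 150338690. S2, S7 and S8 were missing from the first siDRR library and present in the second. The first siDRR list was the shortest of the SMC3 lists, with 8384 peaks against 23196 in the second. With each list cut to equal length, S3 was no longer called in both myotube libraries and so was not tested for loss. Of the 3 sites then tested 0 were lost, against 5.67% over the genome. Without the second siDRR library 4 of 7 sites were lost, 57.1% against 47.9% over the genome, and without the first siDRR library 1 of 7 (14.3%, against 7.12%). Without the first myotube library 3 of 9 were lost (33.3%, against 24.9%), and without the second 2 of 8 (25%, against 11.9%).

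Accessible chromatin of myotubes was spread over the whole window. Peaks of 6 ATAC libraries merged into 74 regions, numbered A1 to A74, of which 44 were called in a single library (59.5%, against 60.1% over the genome) and 4 in all 6 (5.41%, against 9.74%). Exactly 3 libraries called 8 regions (7.57% over the genome), 4 libraries called 4 (5.66%) and 5 libraries called 3 (4.98%). The 4 called in all 6 were A2, A11, A28 and A66.

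A28 ranked first in the window. It lay at 150481848 to 150482997, 161 kb from Cdkn1c, inside the stretch between S4 and S6. Its percentile was 77.9 and 87.5 with control siRNA, 80.2 and 88.3 with siDRR, and 89.0 and 87.9 with siSmc3. It was the highest ATAC region of the window in each of the 6 libraries. A11 came next, with a mean percentile of 74.4 against 85.1 for A28. No annotation in mm9 was used, so whether A28 covers the start of Kcnq1ot1 was not determined.

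A66 lay at the high-coordinate end of the Cdkn1c interval, from 150646516 to 150647530. It stood at 34.8 and 72.0 with control siRNA, 68.7 and 77.3 with siDRR, and 71.6 and 49.2 with siSmc3. The 3 groups overlapped. A65, inside the Cdkn1c interval at 150645063 to 150645863, stood at 50.7 and 35.9 with control siRNA, 46.0 in the second siDRR library and 49.1 in the second siSmc3 library. The first library of each knockdown had no peak there, so A65 counted as neither lost nor gained.

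A11, at 150339556 to 150341028, coincided with S4. Its percentile was 56.0 and 78.9 with control siRNA, 77.1 and 85.5 with siDRR, and 74.7 and 73.8 with siSmc3. S4 was the single SMC3 site of both myotube libraries to meet an accessible region of both control libraries, 1 of 7 against 25.2% over the genome. Counting any ATAC peak of any library, S4 to S9 met one and S1, S2 and S3 did not, 6 of 9 against 77.4% over the genome. With the second replicates alone 4 of 9 SMC3 peaks met a control ATAC peak, and with the first alone 2 of 8. The second replicates had the longer lists in both assays, and genome shares for these settings were not computed. The 25.2% needs both libraries of each assay, so it is no background for these counts.

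The cohesin sites beside Cdkn1c met accessible regions in some libraries and not in others. ATAC peaks at S6 were called in the second control library at a percentile of 11.3, in the first siDRR library at 34.99 and in the first siSmc3 library at 71.8. S7 was met in the second siDRR library at 19.4 and in the second siSmc3 library at 53.1. S8 was met in the second control library at 21.0, the second siDRR library at 42.5, and both siSmc3 libraries at 28.2 and 38.9. The first control library, the shortest ATAC list, had no ATAC peak at any of the 3. None of S6, S7 and S8 met a peak in both control or both siDRR libraries, and S8 alone met one in both siSmc3 libraries. Whether these differences go beyond the spread between libraries was not tested. Within 10 kb of Cdkn1c, the control lists held 2 and 4 ATAC peaks, the siDRR lists 2 and 4, and the siSmc3 lists 4 and 4. These were peaks of A65, A66 and the regions at S6 to S8, apart from 1 in the first siSmc3 library at 150640046 to 150640429, 3.77 kb from the gene, at a percentile of 57.8.

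Other ATAC regions among the 10 of highest mean percentile, counting an absent peak as 0, were A44, A2, A8, A18, A23, A38 and A52. A44 lay at 150553418 to 150554625, 89.6 kb from Cdkn1c, and stood at 74.7 in the second control library, 69.8 and 71.4 with siDRR, and 77.4 and 70.2 with siSmc3. It had no peak in the first control library. A2, at 150286041 to 150287233, stood at 55.1 and 65.7 with control siRNA, 9.91 and 71.0 with siDRR, and 37.6 and 72.3 with siSmc3. A8, A18 and A52 were called in 5, 4 and 5 libraries. A52 joined several peaks of 1 library in 3 of the lists. A23 and A38 were among the regions lost with siSmc3.

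ATAC-seq after siDRR asked whether the RNA is needed for accessibility. Of 14 regions called in both control libraries 1 was lost (7.14%, against 5.85% over the genome). Of 5 called in both siDRR libraries 0 were gained, against 6.26%. All 4 libraries called 4 of 57 regions (7.02%, against 16.3%), and a single library called 35 (61.4%, against 58.3%). The lost region, A1, lay at 150284711 to 150285478, 359 kb from Cdkn1c, and stood at 15.6 and 66.3 in the control libraries. It was called at 35.6 in the second siSmc3 library. The siDRR libraries shared few regions of the window with each other: 5 of 18 regions of the first were in the second (27.8%), against 58.9% over the genome, and 9 of the 18 were in no other ATAC list (against 33.9% over the genome). Without the first siDRR library the 3 libraries left all called 12 of 46 regions (26.1%, against 24.5% over the genome). Under that setting 2 of 14 were lost (14.3%, against 6.76%) and 11 of 30 gained (36.7%, against 33.2%). Without the second, 9 of 14 were lost (64.3%, against 26.9%) and 11 of 18 gained (61.1%, against 41.1%). Without the first control library 11 of 30 were lost (36.7%, against 33.3%). Without the second the share fell below that of the genome, at 5 of 20 (25%, against 31.9%). With the better-scoring 50% of each list 2 of 9 were lost (22.2%, against 4.13%). With lists of equal length it was 3 of 13 (23.1%, against 6.31%).

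After siSmc3, several regions that both control libraries called had no peak. Of 14 regions called in both control libraries 5 were lost (35.7%, against 8.31% over the genome). Of 9 called in both siSmc3 libraries 0 were gained, against 9.58%. All 4 libraries called 6 of 59 regions (10.2%, against 13.6%), and a single library called 39 (66.1%, against 60.3%). Among genome regions in the same classes of mean control percentile as these 14, 9.47% were lost, which would give 1.33 losses. The 14 regions lie on 1 stretch of chromosome and share their 4 libraries, so they are not independent, and no test of this count was run. Of 25 window regions of the first siSmc3 library 9 were in the second (36%, against 48.6% over the genome). The part that this difference between libraries has in the count was not tested.

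The 5 lost regions were A17, A23, A36, A38 and A51. All lay in the stretch between S4 and S6, as did 10 of the 14 regions tested. A17, at 150360360 to 150361109, stood at 73.5 and 53.1 in the control libraries and at 57.1 in the second siDRR library. A23, at 150438840 to 150439970, stood at 73.9 and 74.3 in the control libraries and at 51.5 in the second siDRR library. A36, at 150506332 to 150506950, stood at 28.1 and 54.4, and at 48.8 in the second siDRR library. A38, at 150524435 to 150525118, stood at 63.4 and 63.6, and at 72.5 in the second siDRR library. A51, at 150587209 to 150587995 and the nearest of the 5 to Cdkn1c at 56.2 kb, stood at 65.9 and 54.0, and at 40.3 in the first siDRR library. By the definition of lost, none of the 5 had a peak in a siSmc3 library. Each had a peak in 1 siDRR library and none in the other. How often regions lost with siSmc3 had a siDRR peak over the genome was not counted. The knockdowns share their control libraries, and no test of siDRR against siSmc3 was run.

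None of the 5 met an SMC3 site, and of the 14 regions tested A11 alone did. Over ATAC regions of any library, a wider set, 6 of 74 met one in the window (8.11%) and 16.3% over the genome. The genome share among regions of both control libraries, or among lost regions, was not counted. With 1 of 14 tested regions at an SMC3 site, 0 of 5 does not set the lost regions apart. Among the 5 lost regions the nearest distance was 10973 bp, from A17 to the weak S5. The other 4 were 61232 to 133356 bp from any SMC3 peak of any list. Under every setting tried the share lost was above that of the genome: 44.4% against 7.60% with the better-scoring 50% of each list, and 53.8% against 10.7% with lists of equal length. Leaving out the first siSmc3 library gave 35.7% against 9.76%, and leaving out the second gave 64.3% against 32.5%. Without the first control library it was 48.3% against 32.9%, and without the second 55.0% against 32.7%. Gains were 10 of 23 without the first siSmc3 library (43.5%, against 36.1%), 15 of 25 without the second (60%, against 52.2%), and 2 of 7 without the second control library (28.6%, against 31.5%).

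**Figure D4:**
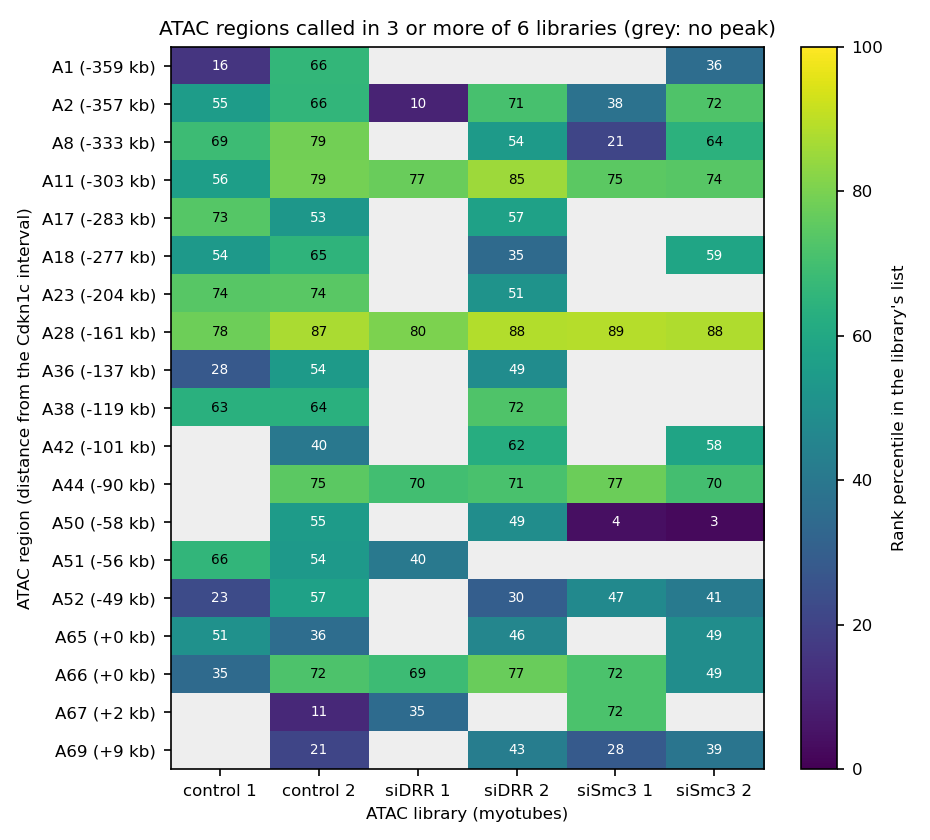
Rank percentile of ATAC regions called in 3 or more of 6 myotube libraries, ordered by position, with the distance from Cdkn1c in kb; grey marks libraries with no peak. A28 is filled in every column at 77.9 or higher, while A17, A23, A36, A38 and A51 are grey in both siSmc3 columns.

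ChIRP asked where the DRR RNA touches chromatin, and a site found by separate probe pools is less likely to come from 1 probe binding DNA itself. Each summit was extended 250 bp both ways, and overlapping ones were merged into 18 regions, numbered R1 to R18. At least 1 replicate of each pool found 2 of them, R13 and R18, 11.1% against 1.18% of ChIRP regions over the genome. Both replicates of a pool found 6 (33.3%, against 16.4%). No region was called in all 4 libraries, against 0.104% over the genome.

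R13 was the ChIRP region with the closest agreement between pools. Its summits lay at 150554331 and 150554334 in the pool 2 replicates and at 150554328 in the second replicate of pool 1, within 6 bp of each other. Their percentiles were 99.7 and 43.1 in pool 2 and 66.1 in pool 1, and the first of these stood 74th of 22984 summits. The first replicate of pool 1 had no summit there. R13 overlapped ATAC region A44, with peaks of the second control library, the second siDRR library and both siSmc3 libraries reaching it. It lay 94643 bp from the nearest SMC3 site, S6.

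R18 lay nearest to Cdkn1c, 15.1 kb from the interval. Its summits were at 150628833 and 150628877 in pool 2 and at 150628709 in the second replicate of pool 1, spread over 168 bp. They were weak, at percentiles of 28.6 and 24.4 in pool 2 and 7.20 in pool 1. R18 met no ATAC peak. With the better-scoring 50% of each list R18 was gone and R13 was the 1 region left in both pools. With the first replicate of each pool alone, 0 regions were found by both pools. Genome shares for these settings were not computed. The pool 1 summits of R13 and R18 came from its second replicate, the longest ChIRP list with 68233 summits.

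Both replicates of pool 1 found R1, R6 and R8 (3 of 18, against 3.7% over the genome), and neither pool 2 library did. R6 was the strongest, with summits at 150346901 and 150346912 and percentiles of 83.9 and 99.7, the second of these standing 203rd of 68233. R8 had summits at 150367821 and 150367870, at 60.5 and 97.2, with the ATAC region A18 250 bp from its edge. R1 had summits at 150284752 and 150284732, at 10.4 and 94.7, and overlapped A1, the region lost with siDRR. Both replicates of pool 2 found R11 at 150467028 and 150467006, at 28.6 and 24.4, with no pool 1 summit. The remaining 12 of 18 regions came from 1 library each (66.7%, against 83% over the genome), 10 of them from the second replicate of pool 1.

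Of the 18 ChIRP regions 5 met an ATAC peak of some library (27.8%, against 12% over the genome) and 0 met an SMC3 peak, against 4.38%. The 5 were R1, R2, R12, R13 and R14. The smallest distance from a ChIRP region to an SMC3 site was 3032 bp, from R1 to S1. No position in the window held SMC3, ATAC and ChIRP together. The LacZ probe and input libraries of the series were not analysed here, so background pull-down at these positions was not examined.

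**Figure D5:**
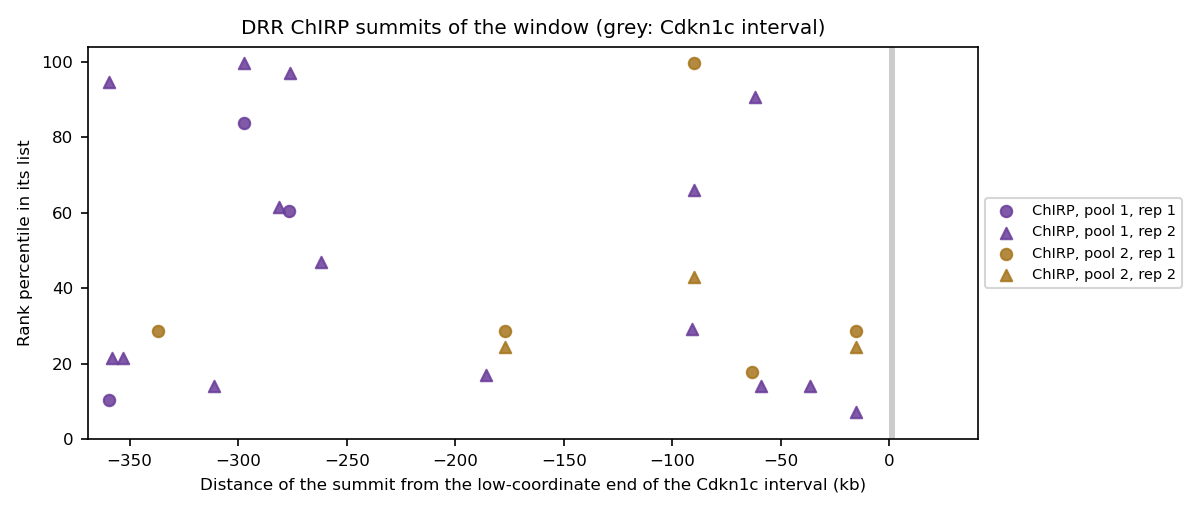
ChIRP summits of the window by distance (kb) from the low-coordinate end of the Cdkn1c interval (grey) and rank percentile in their list, for 2 replicates of each pool. Summits of both pools stand together about 90 kb and 15 kb from Cdkn1c, and the highest pool 1 summits lie on the far Kcnq1 side.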

How the data were processed

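Peak lists of 16 of 26 samples were used, 1 list per library, on build mm9. The submitters' processing notes list, with no role, the peak callers MACS2 and MACS 1.4.2, the aligners Bowtie2 2.2.4 and Bowtie 1.1.1, the trimmer cutadapt 1.12, and bcl2fastq 2.17.1 and CASAVA 1.8.2. Controls, thresholds and read filters are not given in the sources consulted. The deposited score of each peak was made by the authors' peak caller, its scale is not stated, and it was used to rank or filter peaks within a list. ChIRP lists held single-base summits, the others intervals. Depth is unknown.

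Starts were made 1-based, peaks off the assembled chromosomes were left out (0 to 579 per list), and peaks overlapping by 1 bp or more were merged over the whole genome, per comparison or per assay. A lost region had a peak in both first-group libraries and in no second-group library; a gained one the reverse. These words describe calls, not occupancy. Window shares were compared by two-sided exact permutation tests; region counts were set beside genome shares without a test. The labels name no separate cultures, so replicate spread may be technical.

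Named sites were SMC3 sites of 2 or more lists, lost and gained regions, the 10 best ATAC regions, peaks within 10 kb of Cdkn1c and ChIRP regions of 2 or more lists; S5 and single-list ChIRP regions were added after their values were seen, as were the readings of losses by strength, of library overlap and of genome shares with a library left out. The members and lists were chosen with earlier results of these data known. The calling was tested on simulated data. Python 3.11.15, pandas 2.3.3, NumPy 2.4.6 and SciPy 1.17.1 were used.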

Additional observations from a re-analysis of the deposited data

How the results depend on the processing

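Differences in the scaled number of window peaks kept their direction in all 5 comparisons under every setting tried, but their size moved. Leaving out 1 library at a time, they ran from 0.86 to 2.81 window peaks per 10000 for SMC3 in myotubes minus myoblasts, from -2.23 to -0.28 for SMC3 under siDRR, from -0.65 to -0.08 for ATAC under siDRR, from -0.90 to -0.14 under siSmc3, and from -6.14 to -0.37 for ChIRP pool 2 minus pool 1. Counts of regions moved more. With the better-scoring 50% of each list, regions called in all 4 libraries fell to 3 for SMC3 in myoblasts and myotubes and 1 for SMC3 under siDRR. For ATAC they fell to 2 under siDRR and 2 under siSmc3. Genome shares of regions called in all libraries were not computed for this setting, so a general drop cannot be told apart. ATAC losses under siDRR became 2 of 9 (22.2%, against 4.13% over the genome). ChIRP regions of both pools became 1 and those of both replicates of a pool 2, with no genome share computed. With lists of equal length, 4 SMC3 sites were in all myoblast and myotube libraries, with no genome share computed. Under siDRR, 0 of 3 SMC3 sites were lost (against 5.67% over the genome) and 3 of 13 ATAC regions (23.1%, against 6.31%). Leaving out 1 library at a time, SMC3 losses and gains in myotubes each ran from 0 to 1. Under siDRR, SMC3 sites in all libraries ran from 3 to 6 and losses from 1 to 4. Without the first siDRR library 6 of 9 sites were in all (66.7%, against 42.0% over the genome). Without the second it was 3 of 9 (33.3%, against 25.9%). ATAC regions in all libraries ran from 4 to 12 under siDRR, losses from 2 to 11 and gains from 0 to 11. The 4 were of 49 regions, without the second control library (8.16%, against 19.8% over the genome). The 12 were of 46 regions, without the first siDRR library (26.1%, against 24.5%). Under siSmc3, losses ran from 5 to 14 and gains from 0 to 15. With 1 replicate of each assay left out, SMC3 peaks meeting accessible regions ran from 2 of 8 to 4 of 9, with no genome share computed. ChIRP regions of both pools ran from 0 to 2, also with no genome share computed. Treating the replicate number as a block left the differences the same, at 1.84, -1.26, -0.37, -0.52 and -3.25 window peaks per 10000, and the exact paired sign-flip p was 0.5 in 4 comparisons and 1 for ATAC under siDRR; with 2 pairs it cannot go below 0.5. Whether the numbers mark shared cultures was not tested. Leaving out a replicate of a ChIRP pool could give no count of regions of both replicates. The number of libraries and the unknown depth limit every comparison.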
